A study of Mus musculus with 4 samples.

Results

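The genes described here are 40 cell cycle and DNA replication genes of the mouse, measured as gene-level RNA-seq counts in T-helper 2 (Th2) cells. They were chosen by name, from a fixed list of cyclins and cyclin-dependent kinases, S phase genes and mitosis genes. All 40 were found among the 50600 genes of the count tables. By role, 7 are G1 and G1/S cyclins and kinases, 13 act in S phase and 20 in G2 and mitosis (G2/M). The samples are 4 libraries of Th2 primary cells from the mouse strain C57BL/6NJ, all in 1 group, with no second condition. Per the file headers they were taken at 72 h, after a sort. Each is labelled a biological replicate with a biosample of its own, but 1 donor record serves all 4, so the spread between libraries may be that of cultures and not of animals. Age is listed as unknown and sex as not collected. Th2 cells are the CD4 T cells that drive responses to parasites and allergens.

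Naive T cells rest outside the cell cycle, and an antigen receptor signal makes them grow and divide quickly. D-type cyclins with CDK4 and CDK6, and then cyclin E with CDK2, phosphorylate the retinoblastoma protein and so free E2F factors, which switch on the genes of DNA replication. Later in the cycle MYBL2 and FOXM1, with the MuvB complex, switch on the genes of mitosis. E2F factors bind short GC-rich sites, and MuvB binds the cell cycle homology region (CHR), a short AT-rich site near the start of many G2/M genes, often together with CCAAT boxes.

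RefSeq promoter windows (GRCm38.p6, from 250 bases before to 50 after the gene start) were at hand for 31 of the 40 genes. The CHR sequence TTTGAA was read on both strands. It lay in the window of 2 of 11 S phase genes, Mcm2 and Cdc45, in 11 of 15 G2/M genes, among them Mki67, Top2a, Cdk1, Cdc20, Plk1 and Kif11, and in none of the 5 G1 and G1/S genes. Of all 27025 genes with a window, 20.2% held it. Any of 3 spellings of the E2F site, TTTCCCGC, TTTGGCGC or TTTCGCGC, on either strand, lay in 5 of 11 S phase genes (Mcm3, Mcm5, Mcm6, Mcm7 and Cdc6), in 1 of 15 G2/M genes (Cdk1) and in 1 of 5 G1 and G1/S genes (Cdk2), against 2.12% of all genes. The last 2 spellings overlap each other in Mcm5 and once in Mcm6. CCAAT, on either strand, lay in 9 of 11 S phase genes, 14 of 15 G2/M genes and 2 of 5 G1 and G1/S genes, against 41.1% of all genes. A match is a description of the letters and not a bound site. The 160 bases before the start are shown for 2 S phase genes with the E2F letters in capitals and for 3 G2/M genes with the CHR letters in capitals, because these 2 families are the ones compared below. They are Mcm5 (chr8:75109349-75109508, plus strand), Mcm6 (chr1:128359706-128359865, minus strand), Mki67 (chr7:135716380-135716539, minus strand), Top2a (chr11:99024190-99024349, minus strand) and Kif11 (chr19:37376222-37376381, plus strand), all read 5′ to 3′ on the strand of the gene.
Mcm5: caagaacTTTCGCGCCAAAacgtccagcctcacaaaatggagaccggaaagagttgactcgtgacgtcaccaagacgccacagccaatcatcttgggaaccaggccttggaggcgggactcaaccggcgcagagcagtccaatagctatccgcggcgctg
Mcm6: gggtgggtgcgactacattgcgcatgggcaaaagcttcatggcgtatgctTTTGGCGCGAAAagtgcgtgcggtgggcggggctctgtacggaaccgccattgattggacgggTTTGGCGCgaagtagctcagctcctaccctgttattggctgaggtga
Mki67: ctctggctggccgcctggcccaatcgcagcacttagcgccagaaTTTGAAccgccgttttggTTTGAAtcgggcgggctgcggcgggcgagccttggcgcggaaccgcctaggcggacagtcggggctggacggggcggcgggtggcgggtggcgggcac
Top2a: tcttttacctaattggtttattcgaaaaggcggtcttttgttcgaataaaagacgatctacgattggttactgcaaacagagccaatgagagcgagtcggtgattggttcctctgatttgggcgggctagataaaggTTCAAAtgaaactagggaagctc
Kif11: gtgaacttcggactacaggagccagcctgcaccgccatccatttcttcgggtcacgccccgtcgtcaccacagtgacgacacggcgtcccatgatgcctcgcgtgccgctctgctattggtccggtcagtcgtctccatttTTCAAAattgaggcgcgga
In Mki67 the CHR letters stand at 2 places, and in Top2a and Kif11 they stand once, on the other strand, close to the start. None of the 5 genes shown has the overlap described next.

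The libraries held 1780682, 1857433, 1446040 and 1274431 counts in replicates 1 to 4, so that a count of 0 allows up to 1.62 to 2.35 CPM (counts scaled to a total of 1000000 in each library). Levels are given as TPM, counts per length of exon scaled to the same total, and ± is the SD over the 4 libraries (n = 4). The authors counted fragments under strand option 1, which takes the reads to lie on the annotated strand of each gene. Most counts lay in genes whose exons overlap exons on the other strand. Genes without such an opposite exon held 16.4%, 8.54%, 9.14% and 20.1% of the counts in replicates 1 to 4. A TPM is therefore called own-strand here, a name for this way of counting (strand option 1), and was not taken as the level of an mRNA. Whether that option matches the strand of the libraries was not tested. Of the 40 genes, 14 had an opposite exon and 26 had none. Shares over other genes are given below for the 7752 tested genes, those that averaged 10 counts or more.

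Read by level, the 40 genes fell into a small high group and a long low one. All of the high values belonged to genes with an opposite exon. Cdk4, Gins2, Kif20a and Ccna2 had a mean of at least 100 TPM, which makes 4 of the 14 genes with an opposite exon and 0 of the 26 without. Among tested genes the same level was reached by 15.2% of all, by 26.8% of those with an opposite exon and by 3.32% of those without. The 26 genes without an opposite exon lay between 2.10 TPM for Cenpf and 34.9 TPM for Pcna. In every library, 31 of the 40 genes had 1 TPM or more, against 76.1% of tested genes and 12.5% of all 50600. This was so for 13 of the 14 with an opposite exon, against 88.4% of such tested genes, and for 18 of the 26 without, against 63.5%.

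**Figure D1:**
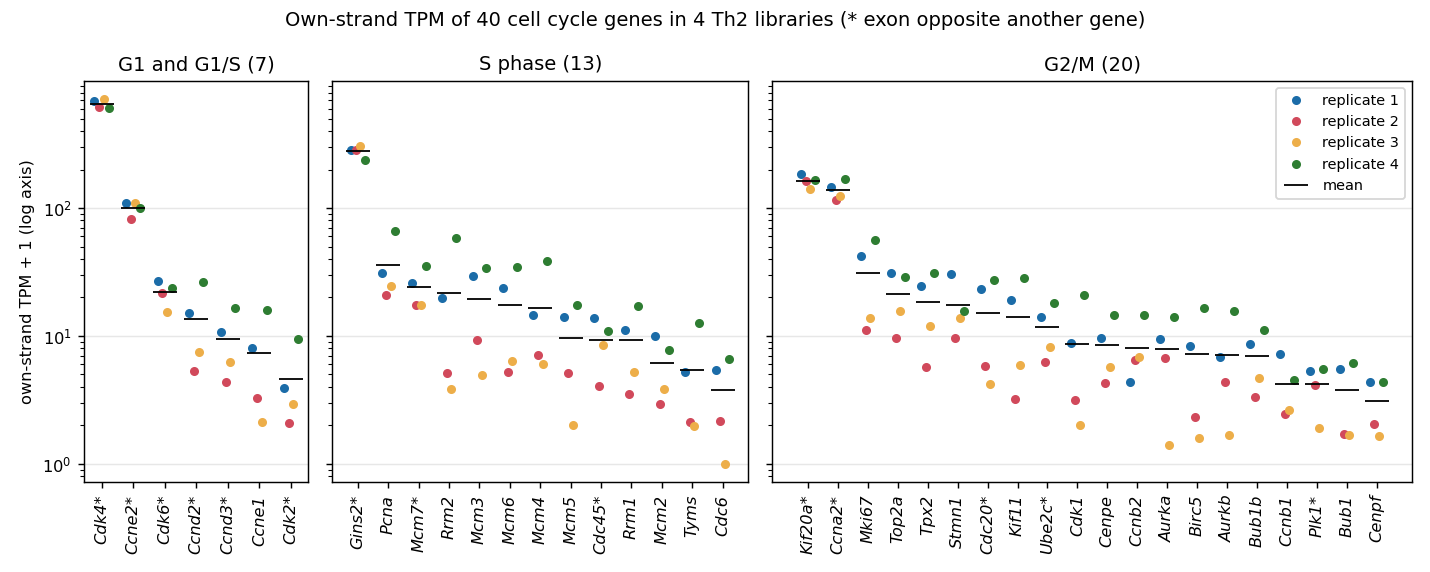
Own-strand TPM + 1 (log axis) of the 40 genes in each of the 4 Th2 libraries, in 3 panels by role and sorted by mean; a bar marks the mean and an asterisk a gene with an exon opposite another gene. Cdk4, Ccne2, Gins2, Kif20a and Ccna2 stand above the rest with the 4 libraries close together, while most other genes are highest in replicate 4.

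In S phase, the MCM helicase opens the DNA at origins, and its 6 subunits form 1 ring. Mcm3 had 28.5, 8.28, 3.97 and 33.2 TPM in replicates 1 to 4, and Mcm6 had 22.9, 4.22, 5.32 and 33.8 TPM. Mcm4 had 13.6, 6.12, 4.98 and 37.5 TPM. In all 3 genes replicates 1 and 4 lay above replicates 2 and 3. Mcm5 had 13.05, 4.18, 0.995 and 16.4 TPM, and Mcm2 had 8.97, 1.96, 2.86 and 6.74 TPM, the lowest mean of the 6 at 5.13 ± 3.29 TPM. Mcm7 (chromosome 5, 138164583 to 138172422, mm10) differed in its spread. It had 24.9, 16.6, 16.6 and 34.0 TPM, a coefficient of variation of its CPM of 30.9%, while the other 5 subunits had 61.5% to 93.0%. Mcm7 is the only one of the 6 with opposite exons, 321 bp with Ap4m1 and 64 bp with Cops6. It also holds Mir25 and Mir93 on its own strand, which had 0 counts.

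The proteins that load and start the helicase had both the lowest and the highest values of the S phase genes. Cdc6, which loads MCM at origins, had 27, 8, 0 and 24 counts in replicates 1 to 4. The 0 in replicate 3 allows up to 2.07 CPM. Cdc45, which activates the helicase, had 12.9, 3.03, 7.50 and 9.86 TPM and shares 209 bp of exon with Ufd1. Gins2, a subunit of the GINS complex that joins it (chromosome 8, 120578633 to 120589304, mm10), had 282, 285, 303 and 237 TPM. Its 4 libraries differed little, with a coefficient of variation of 14.2%, and replicate 4 was its lowest. Of its 4097 bp of exon, 2758 bp (67.3%) lie opposite exons of Gse1.

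Pcna, the sliding clamp of the replication fork (chromosome 2, 132249162 to 132253314, mm10), had 30.3, 19.9, 23.6 and 65.8 TPM and the highest mean of the genes without an opposite exon, 34.9 ± 21.04 TPM. Replicate 4 stood well above the other libraries. Of the enzymes of nucleotide supply, Rrm2, the small subunit of ribonucleotide reductase, had 18.8, 4.10, 2.87 and 57.0 TPM, a coefficient of variation of 119%, the largest of the 40. Tyms, thymidylate synthase, had 4.21, 1.12, 0.978 and 11.6 TPM. Rrm1, the large reductase subunit, varied less, with 10.2, 2.55, 4.24 and 16.1 TPM. In all 3 enzymes replicate 4 was the highest library and replicates 2 and 3 the lowest. Without replicate 4 the mean of Rrm2 was 8.59 TPM in place of 20.7, that of Tyms 2.10 in place of 4.46, that of Mcm4 8.22 in place of 15.5, that of Mcm6 10.8 in place of 16.6 and that of Cdc6 1.86 in place of 2.81.

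Among G2/M genes, Mki67, which coats mitotic chromosomes and marks dividing cells (chromosome 7, 135689784 to 135716361, mm10), had 483, 134, 129 and 453 counts, or 41.02, 10.1, 12.7 and 55.5 TPM. Top2a, the topoisomerase that untangles sister chromatids (chromosome 11, 98992943 to 99024189, mm10), had 320, 103, 133 and 203 counts, or 30.3, 8.66, 14.7 and 27.8 TPM. These were the 2 best counted G2/M genes without an opposite exon, and in both replicates 1 and 4 lay above replicates 2 and 3. They differed in their top library, which was replicate 4 for Mki67 and replicate 1 for Top2a.

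Of the spindle genes, Kif11 and Tpx2 also had replicates 1 and 4 above replicates 2 and 3. Kif11, the kinesin that pushes spindle poles apart, had 18.1, 2.20, 4.95 and 27.4 TPM, and Tpx2, which nucleates spindle microtubules, had 23.6, 4.70, 11.04 and 30.3 TPM. Stmn1, a microtubule destabiliser, had 29.3, 8.67, 12.9 and 14.8 TPM. Its replicate 1 stood apart, and replicate 4 was close to replicate 3. Kif20a, a kinesin of cytokinesis, had 185, 161, 139 and 166 TPM, but 1259 of its 3796 bp lie opposite exons of Cdc23, itself a subunit of the anaphase-promoting complex (APC/C).

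Cdk1, the kinase of mitotic entry, had 45, 14, 5 and 79 counts, or 7.79, 2.15, 1.01 and 19.7 TPM. Its B-type partners were low. Ccnb1 had 31, 8, 7 and 12 counts and Ccnb2 had 6, 11, 9 and 17. Ccnb2 was the only one of the 26 genes without an opposite exon whose lowest library was replicate 1. Ccna2, the A-type cyclin that serves S phase as well as G2 (chromosome 3, 36564865 to 36572150, mm10), had 146, 114, 124 and 167 TPM, and 510 of its 4083 bp lie opposite exons of Exosc9.

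Mitotic kinases, checkpoint and kinetochore genes sat at the low end. Aurka and Aurkb, the Aurora kinases of spindle poles and of chromosomes, had 25, 19, 1 and 27 counts and 20, 13, 2 and 35 counts. Replicate 3 was nearly empty for both. Birc5 (survivin), which partners Aurora B, had 29, 6, 2 and 43 counts, and Bub1, a spindle checkpoint kinase, had 23, 4, 3 and 18. Both were highest in replicates 1 and 4. Bub1b, which encodes the checkpoint protein BubR1, had a mean of 5.93 ± 3.57 TPM, Cenpe, a kinetochore kinesin, 7.55 ± 4.62 TPM, and Cenpf, a kinetochore protein, 2.10 ± 1.47 TPM. For the APC/C, its activator Cdc20 had 22.4, 4.87, 3.19 and 26.4 TPM, and its ubiquitin-conjugating enzyme Ube2c had 13.1, 5.25, 7.26 and 17.1 TPM. Plk1, the polo-like kinase, had 11, 9, 2 and 8 counts and was the 1 gene of the 40 with a mean count under 10. Without replicate 4 the mean of Cdk1 was 3.65 TPM in place of 7.67, that of Aurkb 3.27 in place of 6.12, that of Birc5 3.07 in place of 6.20 and that of Kif11 8.41 in place of 13.2.

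Of the G1 and G1/S genes, Cdk4, a kinase of the D-type cyclins (chromosome 10, 127063534 to 127067920, mm10), had the highest value of the 40, with 2623, 2630, 2321 and 1602 counts, or 689.8, 613, 709 and 608 TPM. Its exons share 641 bp with Tspan31. Cdk6, the other kinase of these cyclins, had 25.7, 20.8, 14.3 and 22.7 TPM. The cyclins Ccnd2 and Ccnd3 had 14.2, 4.35, 6.44 and 25.3 TPM and 9.74, 3.37, 5.21 and 15.5 TPM. Both cyclins were highest in replicate 4 and lowest in replicate 2, while both kinases varied less on the scale of all counts. Scaled to the counts of genes without an opposite exon, the kinases varied more. Their coefficients of variation were then 45.3% (Cdk4) and 37.1% (Cdk6), against 33.1% (Ccnd2) and 21.9% (Ccnd3). Of the E-type cyclins, Ccne1 had 7.06, 2.28, 1.12 and 14.8 TPM, while Ccne2 had 109, 81.5, 108 and 99.9 TPM. Ccne1 is the only G1 or G1/S gene without an opposite exon, and 609 of the 3495 bp of Ccne2 lie opposite exons of Ints8. Cdk2, the kinase of cyclins E and A, had 2.89, 1.10, 1.92 and 8.53 TPM. Without replicate 4 the means of Ccnd2, Ccne1 and Cdk2 were 8.32, 3.49 and 1.97 TPM in place of 12.6, 6.32 and 3.61.

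The S phase genes had higher medians than the G2/M genes in replicates 1 and 4 and near-equal ones in replicates 2 and 3. The median over all 13 S phase genes was 13.6, 4.18, 4.24 and 33.2 TPM in replicates 1 to 4, and that over all 20 G2/M genes was 8.53, 4.02, 4.22 and 15.2 TPM. On the log2(TPM + 1) scale the difference, S phase minus G2/M, was 0.61, 0.057, 0.012 and 1.08. It averaged 0.44 ± 0.51, so the difference was smaller than its spread between libraries although it was above 0 in 4 of 4. It exceeded its spread with CPM in place of TPM, which leaves length uncorrected, at 0.78 ± 0.41. It also did so with Stmn1, Mki67, Top2a and Ccna2 left out of the G2/M genes, at 0.72 ± 0.36. It narrowly did so without replicate 2, at 0.57 ± 0.54, and without replicate 3, at 0.58 ± 0.51. It did not without replicate 1, at 0.38 ± 0.60, or without replicate 4, at 0.23 ± 0.33. With Ccne1, Ccne2 and Cdk2 counted as S phase genes it did not, at 0.30 ± 0.34. Over the 10 S phase and 15 G2/M genes without an opposite exon it was 0.70, 0.27, -0.11 and 0.64, above 0 in 3 of 4, with a mean of 0.38 ± 0.37. Without replicate 4 the mean over all genes of both lists was 0.23, and the S phase median was 7.33 TPM in place of 13.8. No p is given, since the genes were chosen with earlier results of these data known. The G1 and G1/S genes had a median of 14.2, 4.35, 6.44 and 22.7 TPM.

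**Figure D2:**
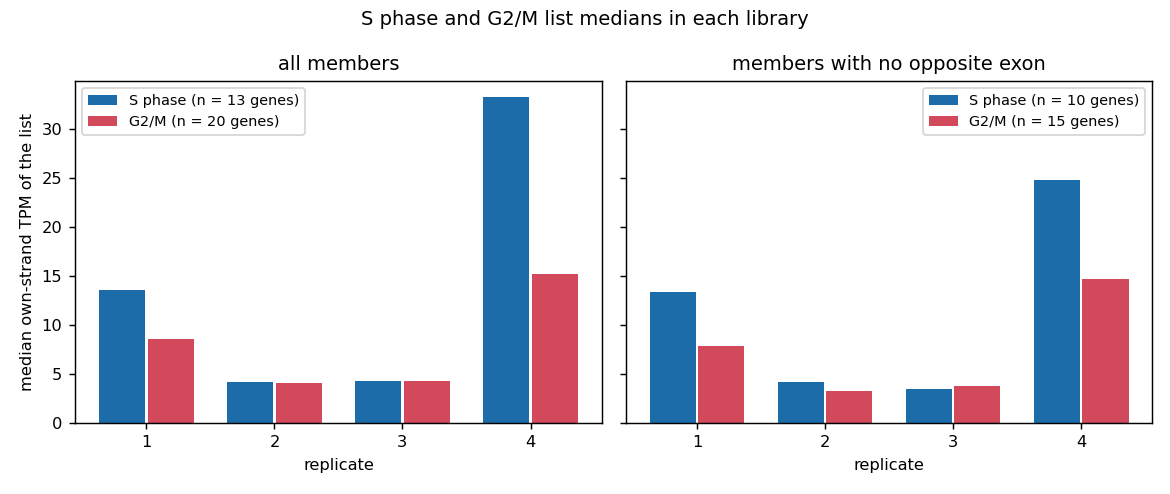
Median own-strand TPM of the S phase (blue) and G2/M (red) genes in each library, for all genes of the lists (left) and for those with no exon opposite another gene (right). Replicates 1 and 4 hold the higher medians of both lists, and the gap between the lists is widest in replicate 4, at 33.2 against 15.2 TPM for all genes.

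The order of libraries was shared by most of the 40 genes, and much of it was shared by other genes without an opposite exon. CPM was highest in replicate 4 for 29 of the 40 genes, against 43.3% of tested genes. It was so for 21 of the 26 without an opposite exon, against 58.7% of such genes, and for 8 of the 14 with one, against 28.3%. The other 5 of the 26 were highest in replicate 1, against 27.3%. Replicate 2 was the highest library for 0 of the 40, against 14.4%. Of the 26, 12 were lowest in replicate 2, against 40.2%, and 13 in replicate 3, against 42.9%. Median deviations from the mean of the 4 libraries, on the log2(CPM + 1) scale, were 0.74, -0.90, -1.05 and 1.20 in replicates 1 to 4 for the 26 genes. They were 0.54, -0.61, -0.62 and 0.90 for all 3827 tested genes of that kind. The 26 genes together held 0.127%, 0.0390%, 0.0458% and 0.176% of the counts. As a share of the counts in genes without an opposite exon they held 0.774%, 0.456%, 0.501% and 0.875%, so replicates 1 and 4 stayed above replicates 2 and 3 on that scale too. With CPM taken over genes without an opposite exon, 16 of the 26 were highest in replicate 4, against 38.7% of such genes. So were 3 of the 14 with an opposite exon, against 10.9%, and 19 of all 40, against 24.6%.

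T cell marker genes moved with these values, as did most tested genes without an opposite exon, 58.7% of which were highest in replicate 4. The share was 43.3% over all tested genes. Of the markers below, 5 of the 6 T cell and 3 of the 5 Th2 ones have no opposite exon. The summed TPM of Cd3e, Cd3d, Cd3g, Cd4, Cd2 and Cd5 was 211, 74.6, 45.3 and 316 in replicates 1 to 4, with 6 of 6 highest in replicate 4, and that of 5 Th2 markers was 212, 125, 119.5 and 357, with 4 of 5 highest in replicate 4. The exception was Il4, with 72.4, 67.9, 68.0 and 64.3 TPM, and Il13 made up the most of the sum in replicate 4, at 213 TPM. Of the B cell markers, Cd79a had 20.5, 21.3, 6.13 and 1.69 TPM, highest in replicates 1 and 2, while Cd79b had 1 count in replicate 1 and none elsewhere, and Ms4a1 had 0 counts in all libraries. Of the 5 myeloid markers, 4 had 0 counts, and Csf1r, which has an opposite exon, made up the sum of 125 to 137 TPM. All 4 CD8 and natural killer markers had 0 counts. The part of cell make-up, of depth and of the share of counts in genes without an opposite exon in these library differences was not tested. In bulk RNA, fewer cells in cycle and less RNA per cell cannot be told apart, and these own-strand values were not taken as mRNA levels. The 3827 tested genes without an opposite exon also had positive median deviations in replicates 1 and 4.

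The genes differed in how far they varied between libraries. The 5 genes of highest TPM, all with an opposite exon, had coefficients of variation of 9.89% (Kif20a), 10.03% (Cdk4), 11.5% (Ccne2), 12.1% (Ccna2) and 14.2% (Gins2). The 26 genes without an opposite exon ranged from 47.6% (Top2a) to 119% (Rrm2), with a median of 74.7%, against 70.3% for all tested genes of that kind. The 14 with an opposite exon had a median of 38.6%, against 30.0%. Scaled to the counts of genes without an opposite exon, Cdk4 varied by 45.3% and Gins2 by 50.3%. The lowest values of the 40 were then 10.3% for Ube2c, 14.9% for Mcm7 and 18.5% for Cenpe, while Rrm2 still had the highest, 92.3%. Which genes were steady therefore depended on the genes used for scaling.

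A chi-square test of each gene against Poisson sampling, with TMM library sizes and Benjamini-Hochberg adjustment over 7752 genes, called 37 of the 39 cell cycle genes tested, against 88.2% of all. This is near the share of the whole table and is no particular result for these genes. The 2 that did not pass were Ccna2 (adjusted p = 0.41) and Mcm7 (adjusted p = 0.074). All 26 without an opposite exon passed, against 88.1% of such genes, and 11 of 13 with one, against 88.3%. TMM moved the library sizes by 0.12, -0.24, -0.13 and 0.25 on the log2 scale against total counts. With total counts as sizes all 39 passed, against 6775 of all 7752 genes. With TMM over genes without an opposite exon 32 of the 39 did, against 6521 of 7752.

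**Figure D3:**
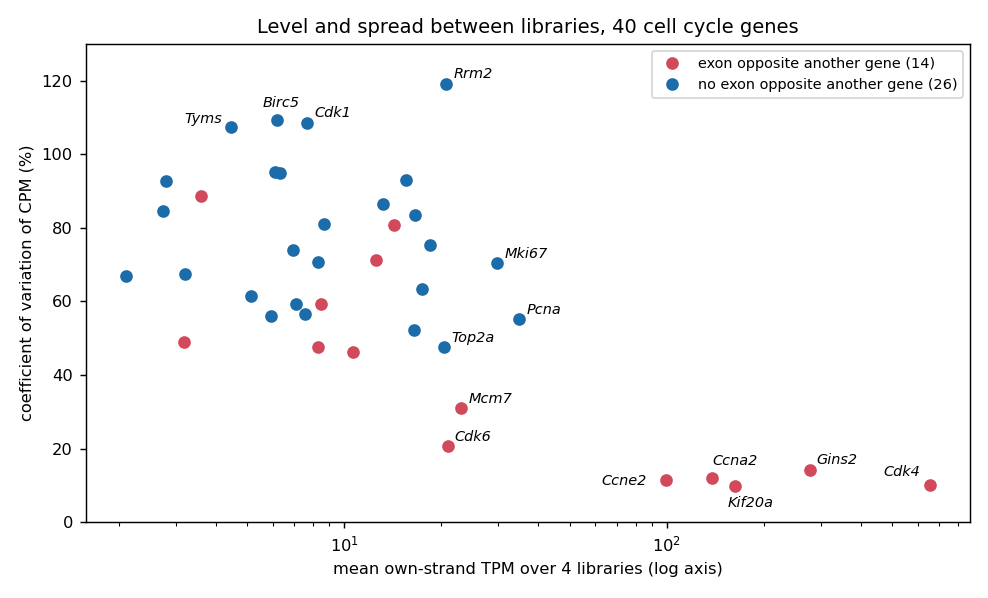
Mean own-strand TPM (log axis) of each of the 40 genes against the coefficient of variation of its CPM over the 4 libraries, in red for the 14 genes with an exon opposite another gene and in blue for the 26 without. The 5 genes of highest TPM are red and vary by 9.89% to 14.2%, and no blue gene varies by less than 47.6%.

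The 14 genes with an opposite exon made 16 pairs with genes on the other strand, 10 of them tail to tail, 4 head to head and 2 with the partner inside the span of the gene. Of the partners 12 were protein-coding and 4 were not. Per kb of exon, the partner had more counts in 10 pairs and the cell cycle gene in 6. Ccnd2 had the widest gap. It had 156, 54, 61 and 193 counts over 9409 bp of exon, while Gm43126, an antisense gene of 429 bp of which 372 bp lie opposite its exons, had 2252, 2841, 1926 and 1956 counts. A second antisense partner of Ccnd2, 9330179D12Rik, shares 368 bp with it and had 35, 52, 30 and 54 counts.

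Plk1 and Cdk6 have a gene that is not protein-coding within their span. Plk1 had 11, 9, 2 and 8 counts against 661, 747, 494 and 363 for Gm44985, which shares 156 bp with it. Cdk6 had 421, 384, 202 and 258 counts over 13989 bp of exon against 364, 523, 327 and 282 over 1232 bp for Gm17590, which shares 368 bp with it. The partner was therefore the denser in both pairs. Ccnd3, which shares 361 bp with the ribosome biogenesis gene Bysl, had 100, 39, 46 and 110 counts against 3064, 3380, 2651 and 1977 for Bysl. The partner was also the denser in 3 of the 4 head-to-head pairs, that of Ccnd2 and 9330179D12Rik with 12.3 against 28.8 counts per kb among them. Cdk2, which shares 34 bp with Pmel, had 3.42 counts per kb against 296.6, and Mcm7 had 23.8 against 176 for Ap4m1 and, tail to tail, 136 for Cops6.

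The reverse held for 4 of the 5 highest genes. Cdk4 had 706 counts per kb against 37.7 for Tspan31, Gins2 301 against 23.9 for Gse1, and Ccne2 106 against 32.9 for Ints8. Kif20a had 176 against 150.4 for Cdc23. Ccna2, the fifth, had 146 against 404 for Exosc9. Cdc45, with 8.66 against 3.92 for Ufd1, and Cdc20, with 14.3 against 9.54 for Elovl1, were the other 2 pairs in which the partner had less. The counts of such pairs are those obtained under strand option 1. How far each belongs to the gene it is listed under, and not to its partner, was not tested. Ube2c and Tnnc2, which share 592 bp, both had few counts, at 10.9 and 14.7 per kb.

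**Figure D4:**
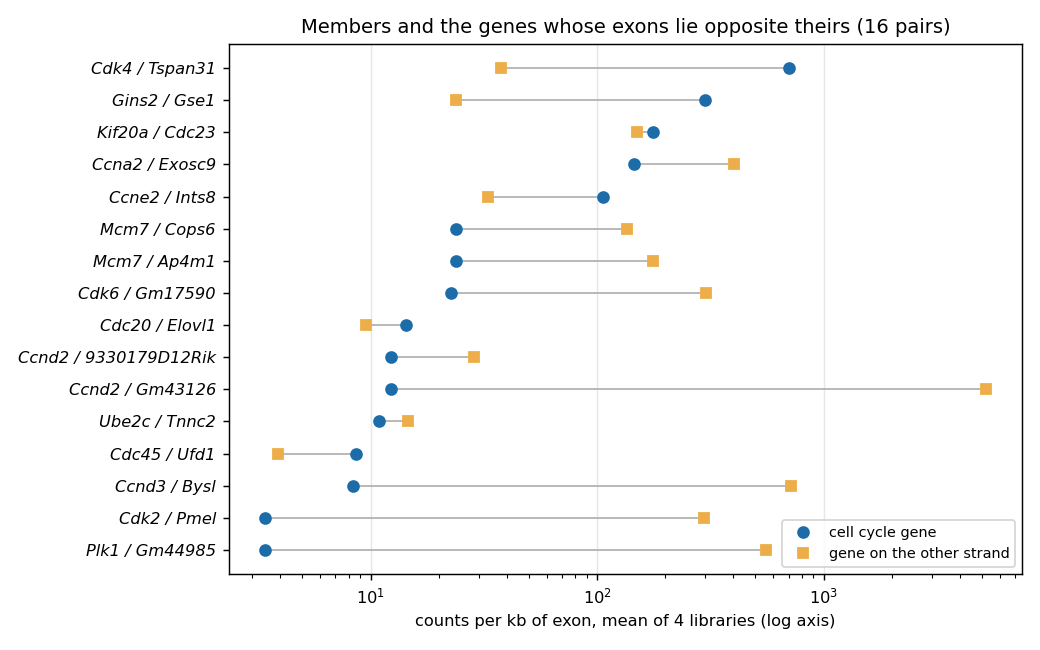
Counts per kb of exon (log axis, mean of 4 libraries) for the 16 pairs of a cell cycle gene (circle) and the gene whose exons lie opposite (square), sorted by the value of the cell cycle gene. The square lies to the right in 10 pairs, farthest for Ccnd2 and Gm43126, and to the left for Cdk4, Gins2, Ccne2, Kif20a, Cdc20 and Cdc45.

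Related genes were set against each other per length in 6 pairs, as log2 ratios of TPM + 1 within each library. Cdk4 exceeded Cdk6 by 4.93 ± 0.41 and Ccnd2 exceeded Ccnd3 by 0.43 ± 0.19, each in 4 of 4 libraries. Ccne1 over Ccne2 was -4.19 ± 1.28, negative in 4 of 4. For these 3 pairs an exact permutation test over signs, two-sided, gave p = 0.13, the smallest it can give with 4 libraries, and 0.25 after Benjamini-Hochberg adjustment over the 6 pairs. The test therefore cannot reach 0.05, and of the 6 genes in these pairs only Ccne1 has no opposite exon. Among pairs without one, Rrm1 over Rrm2 was -0.67 ± 0.91, negative in 3 of 4, Ccnb1 over Ccnb2 was -0.93 ± 1.13, negative in 3 of 4, and Aurka over Aurkb was 0.17 ± 0.44, positive in 2 of 4. The spread exceeded the ratio in all 3, with adjusted exact permutation p-values of 0.30, 0.30 and 0.50. Without replicate 4 the Rrm1 ratio was -0.30, and without replicate 1 the Ccnb1 ratio was -1.49.

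Around these genes, 72 others of the cell cycle were measured in 7 lists by role. Of the 72, 52 averaged 10 counts or more, and 42 of these varied beyond Poisson sampling, against 88.2% of all tested genes. The median over the 72 of the mean TPM was 3.25. Among the E2F, Rb and MuvB factors, E2f4, a mainly repressing E2F, had 12.9 ± 4.72 TPM and Rb1, the retinoblastoma gene, 9.31 ± 4.54 TPM. Of the CDK inhibitors, Cdkn1a (p21) had 25.4, 5.80, 13.8 and 49.4 TPM, Cdkn2d had 7.06, 3.85, 0.631 and 14.9 TPM, and Cdkn2a had 0 counts in all 4 libraries. Cdkn1a and Cdkn2d were thus highest in replicate 4.

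In licensing, Gmnn, which blocks reloading of MCM, had 25.5 ± 17.7 TPM and Orc3, an origin recognition subunit, 20.1 ± 9.14 TPM. At the fork, the clamp loader gene Rfc5, which has an opposite exon, had 119.9 ± 10.02 TPM and the ligase gene Lig1 16.8 ± 9.70 TPM. For nucleotide supply, the thymidine kinase gene Tk1 had 29.7 ± 4.72 TPM and the dUTPase gene Dut 9.22, 1.89, 4.94 and 32.2 TPM in replicates 1 to 4. Of the checkpoint and mitotic entry genes, the phosphatase gene Cdc25b had 3.14 ± 1.03 TPM and the inhibitory kinase gene Wee1 3.01 ± 2.10 TPM. Of the kinetochore, spindle and cytokinesis genes, Incenp, the scaffold that holds Aurora B and survivin, had 37.7 ± 7.35 TPM and the chromokinesin gene Kif4 35.4 ± 6.96 TPM. Incenp has no opposite exon and had 46.2, 28.3, 38.6 and 37.6 TPM, a smaller spread for its level than that of its partners Aurkb and Birc5. It still varied beyond Poisson sampling (chi-square test, adjusted p = 0.019). Its spread scaled to the counts of genes without an opposite exon was not computed. Rb1, Lig1, Tk1, Cdc25b and Kif4 have an opposite exon as Rfc5 does. CPM was highest in replicate 4 for 48 of the 72 genes, against 43.3% of tested genes. It was so for 39 of the 52 without an opposite exon, against 58.7% of such tested genes. Tested genes average 10 counts or more, while the 48 and the 39 also include genes below that. Of the 72 genes 52 were tested, and of the 52 without an opposite exon 33 were.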

How the data were processed

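Total RNA-seq of 4 Th2 libraries was analysed. The authors deposited raw fragment counts for each gene. The file headers name featureCounts v1.4.6-p4, STAR alignments (version not given in the sources used here), GENCODE M13 exons and strand option 1; fragments had to map at both ends. The assembly is mm10, per the labels. The exon length in the same files is the other deposited value used. A listing in each deposit was not used.

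Symbols came from GENCODE M21 by gene identifier without version, and 224 of 50600 identifiers had none. TPM and CPM were computed from the counts. Exons on the other strand sharing at least 1 bp, found with bedtools 2.31.1, counted as opposite exons. For genes that averaged 10 counts or more, counts were tested against Poisson sampling by chi-square with TMM sizes (edgeR 4.0.16), adjusted by Benjamini-Hochberg at 0.05. Chi-square p-values cover counting error, and with 1 group no contrast between conditions exists. On counts simulated for 7752 genes, the test called 0 genes with no change. Of 200 genes raised 2-fold and 4-fold in replicate 1 it called 63.5% and 100%, with 6 and 9 unchanged genes also called. The simulated counts had Poisson spread only, which the test assumes, so the simulation cannot show how the test behaves on these libraries. Limits for a count of 0 cover counting error only (3 counts). Alternatives were DESeq2 1.42.0 size factors, total counts, TMM over genes without an opposite exon, no filter, a pseudocount of 0.1, CPM, other list members, and each library left out. Promoters are RefSeq, GRCm38.p6.

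All 40 genes are named, with partners sharing at least 100 bp, and, per further list, the 2 of highest mean TPM and any at 0 in all libraries; Cops6, Pmel, Elovl1, Mir25 and Mir93 were named after their values were seen. The genes and lists were chosen with earlier results of these data known. R 4.3.3 and Python 3.11.15 were used. 1 cell type marker is not reported here.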

Additional observations from a re-analysis of the deposited data

Results flagged for a closer look

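A library far from the other 3 was looked for in 50 values, namely the TPM of each of the 40 genes, 3 list medians, the difference between the S phase and G2/M medians, and 6 ratios of related genes. Chance alone flags about 1 in 20. Of the 50, 2 were flagged. The log2 ratio of Cdk4 over Cdk6 was 5.53 in replicate 3, while the other libraries had 4.68 to 4.82. The log2 ratio of Ccnb1 over Ccnb2 was 0.74 in replicate 1, while the others lay between -1.70 and -1.37, and it rests on 31 counts of Ccnb1 and 6 of Ccnb2 in that library.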

How the results depend on the processing

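Leaving out each replicate in turn gave an S phase median of 7.33 to 17.0 TPM, a G2/M median of 5.59 to 9.31 TPM, a G1 and G1/S median of 8.32 to 14.5 TPM and an S phase minus G2/M difference of 0.23 to 0.58. That difference was 0.78 with CPM in place of TPM, 0.72 without Stmn1, Mki67, Top2a and Ccna2 and 0.30 with Ccne1, Ccne2 and Cdk2 counted as S phase genes. With 1 replicate left out, between 31 and 39 of the 40 genes reached a TPM of at least 1. Of the 37 to 39 tested, 33 to 35 varied beyond Poisson sampling, against 5579 to 6589 of the 7292 to 8193 genes tested in all. Of the 40, 29 to 35 were highest in replicate 4, a count that cannot be had without that library. TPM rescaled over genes without an opposite exon gave medians of 99.1 (S phase), 61.3 (G2/M) and 90.0 (G1 and G1/S), by construction, since the scale is set by fewer genes. With only genes without an opposite exon, 18 reached a TPM of at least 1 and 3373 genes varied beyond Poisson sampling; with no filter on low counts 11684 did, as more genes enter. With CPM over genes without an opposite exon 19 were highest in replicate 4. At a TPM of at least 5, chosen after seeing the data, 12 genes passed. With CPM in place of TPM, which leaves length uncorrected, 3 ratios changed sign: Ccnb1 over Ccnb2 to 0.23, Aurka over Aurkb to -0.017 and Rrm1 over Rrm2 to 1.20. Of 256 values under alternatives, 245 stayed within the spread of the libraries or within 1.5 times. No paired analysis was possible because there is only 1 group. Of the 40 genes, 9 had a TPM under 1 in at least 1 library, and without replicate 3 all but 1 reached it. The part of depth in this was not tested.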
